A study of Mus musculus with 18 samples.

Results

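A set of 206 mouse genes had a high density of ribosomes on their mRNA in all 3 tissues examined at E11.5, namely mesoderm, neural tube (NT) and forelimb buds (FL). Translational efficiency (TE) was taken as log2(RPF + 1) minus log2(RNA + 1). RPF and RNA are the normalized reads of a gene in Ribo-Seq and in RNA-Seq, and RPF stands for ribosome-protected fragments, the pieces of mRNA left when nuclease has digested all that ribosomes do not cover. Each Ribo-Seq library was paired with the RNA-Seq library of the same tissue and replicate number, and TE was centred on the median gene of each pair. A value of 0 is therefore the typical gene of that pair, and a value of 1 is 2-fold above it. Of 11054 genes measured in all tissues, 8022 had a mean RNA level of at least 300 normalized reads in each tissue. Of these, 218 had a centred log2 TE of 0.7 or higher, which is 1.62-fold above the typical gene, in all 9 pairs. Another 12 of the 218 were left out because their symbols mark subunits of ribosomes or of the respiratory chain, which leaves the 206 genes (2.57% of the 8022). The genes were chosen by their TE in these same libraries, so their TE is given as a description.

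There were 18 libraries, with 3 replicates each of Ribo-Seq and RNA-Seq per tissue. Mesoderm cells were GFP+ cells isolated by FACS from embryos that carried R26-mTmGflox/+, a reporter which turns to GFP after recombination, together with Tg(T-cre)1LWD/J/+, which drives Cre from the T gene and so marks the descendants of the primitive streak. NT and FL were microdissected from FVB embryos and are mixtures of all cell types of those organs, so that fewer cells of a type and less RNA per cell cannot be told apart. NT and FL were taken from the same embryos, and their dissociated cells were divided between Ribo-Seq and RNA-Seq. The labels name the replicates as separate samples but do not say how many embryos each holds, and p-values measure the spread between these samples.

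When a ribosome engages an mRNA, initiation at the start codon usually sets the pace, and the number of ribosomes that follow one another on a reading frame reflects how often initiation succeeds. mRNAs of abundant housekeeping proteins, such as actin and histones, are textbook examples of efficient translation. Short reading frames, few start codons ahead of the main one and a favourable sequence around the start codon are known features of well-translated mRNAs.

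The deposited tables identify genes by UCSC identifiers only, and symbols were found for 53 of the 206 genes (25.7%). The symbols come from the supplementary tables of the paper, in the copies used here, which pair 29.2% of all 11054 genes with one. The exclusion by symbol could not be applied to the other 153 genes, so ribosomal and respiratory chain genes may remain among them. One named gene, *2010107E04Rik*, stayed in by its symbol in those tables although RefSeq calls it *Atp5mpl*. The 53 named genes are not a random sample of the 206. Their mean TE over the 9 pairs had a median of 1.58, against 1.28 for the 153 without a symbol and 1.34 for all.

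The sequence around the start codon is shown for the 10 named genes of highest mean TE, since this is where the ribosome begins. Each line runs 5′ to 3′ from 12 bases before the start codon, in the GENCODE vM21 transcript of the gene, and capitals mark the stretch from 3 bases before the ATG to the base after it. Positions of the ATG are on GRCm38, the assembly also called mm10.
*H2afx*, chr9:44334762-44334764, plus strand: acctcgtacACTATGTccggac
*H3f3a*, chr1:180811924-180811926, minus strand: ggtgtccttACCATGGctcgta
*Actb*, chr5:142905684-142905686, minus strand: caccagttcGCCATGGatgacg
*Hba-x*, chr11:32276664-32276666, plus strand: accaccaccACCATGTctctga
*Ly6e*, chr15:74957808-74957810, plus strand: aaccttcagCAGATGTctgcca
*Sh3bgrl*, chrX:109095593-109095595, plus strand: cttgtttccAGGATGGtgatcc
*Kdelr2*, chr5:143403962-143403964, plus strand: accgccgccGCCATGAacatct
*Pfn1*, chr11:70654478-70654480, minus strand: agcagcagcGCCATGGccgggt
*Polr3k*, chr2:181864459-181864461, plus strand: gaagctggcAGTATGCtgttgt
*Ptges3*, on chromosome 10 with an ATG that is split by an intron: gccccgttcACCATGCagcctg

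A purine (A or G) lay 3 bases before the ATG in 9 of these 10 genes, and a G followed the ATG in 4 of them. Both features together, the classical favourable context, were held by 4 of the 10. Over the named genes with enough annotated sequence, 48 of 51 had the purine (94.1%), against 86.0% of 3106 genes of the tables with a symbol and 84.5% of 20259 coding genes of the annotation. The G after the ATG was found in 47.1% of the named genes, 52.3% of the genes with a symbol and 49.6% of all coding genes. None of the 52 named genes with a matched annotation began its transcript with a C followed by 4 or more pyrimidines. At their annotated start 1.64% of the genes with a symbol and 2.25% of the coding genes had this. It is the mark of the mRNAs of the translation machinery, whose symbols the rule left out, so the choice of genes favours its absence.

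The named genes were short. The median length of their annotated reading frame was 159 codons, against 602 codons over the 3177 genes of the tables with a symbol and a match, and 391 codons over all 21551 coding genes. Reading frames under 200 codons were held by 31 of the 52 (59.6%), against 17.8% of the genes with a symbol. The range ran from 58 codons in *2010107E04Rik* to 848 codons in *Ncam1*, a cell adhesion molecule of neurons. No ATG lay in the annotated leader ahead of the start codon in 36 of the 52 (69.2%), against 39.4% of the genes with a symbol and 48.2% of all coding genes. The median length of their leaders was 167 bases, against 208 bases over the genes with a symbol and 161 bases over all coding genes. As a check on the 206 genes these comparisons are void, because 25.2% of them could be matched where 80% would be needed. They describe the named genes and carry no test. The genes with a symbol are no random sample either, since the symbols come in part from a supplementary table described as genes whose TE differed between NT and FL. The authors counted reads without the first 15 and last 5 codons, in both library types alike, which removes a larger part of a short reading frame than of a long one. Promoter sequences were found for 35 of the 53 named genes, too few for shares of motifs to be compared.

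**Figure D1:**
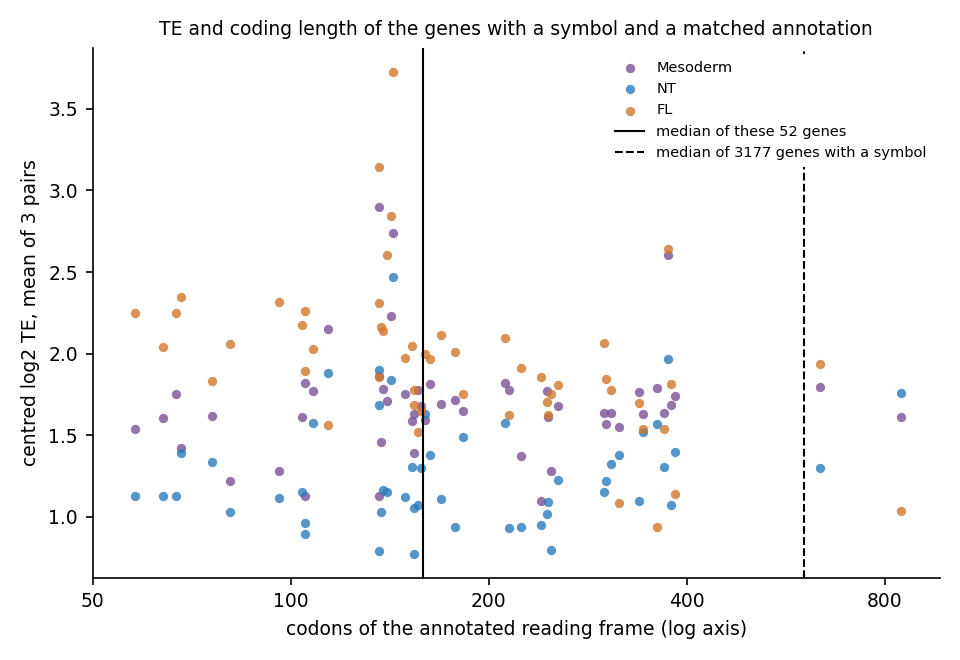
Centred log2 TE (vertical axis, mean of 3 pairs) against the number of codons of the annotated reading frame (horizontal log axis) for the 52 named genes with a match, with 3 points a gene for mesoderm, NT and FL. All but *Ubqln2* and *Ncam1* (848 codons) lie left of the dashed line at 602 codons, the median of the genes with a symbol, and the solid line marks their own median of 159 codons.

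Some libraries stood apart from the rest, and this touches every comparison of NT with FL. Ribo-Seq replicates 1 and 2 were much closer to each other than to replicate 3 in NT and in FL. On recovered whole reads, the chi-square per degree of freedom between replicates 1 and 2 was 7.83 in NT and 17.4 in FL, against 160 or more for either with replicate 3. All of these values are above the value of 1 that counting noise gives, so no library was a copy of another. The Ribo-Seq libraries of replicate 3 were also closer to the other tissue. Pearson's r of log2 reads with the other tissue averaged 0.816 for FL replicate 3 and 0.783 for NT replicate 3, against 0.728 to 0.744 for replicates 1 and 2. Each library remained closer to its own tissue, with a mean r of 0.891 or more. Among RNA-Seq libraries of NT, replicate 1 was farthest from the others (mean r 0.948 against 0.958 and 0.959), and in the mesoderm replicate 1 was, with a chi-square per degree of freedom of 380 and 226 against 64.4 between replicates 2 and 3. Reads per library ran from 11000015 to 31993255 in Ribo-Seq and from 24555103 to 50136443 in RNA-Seq. The neural marker *Dcx* had 2675 to 7953 normalized reads in NT RNA-Seq against 301 to 345 in FL. The 4 limb markers measured summed to 15257 to 18811 in FL RNA-Seq against 1387 to 1748 in NT. Of the marker lists, 1 of 10 neural and 4 of 11 limb genes had a symbol in that table.

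TE of the 206 genes depended on the pair. Their median centred log2 TE was 1.20, 1.55 and 1.32 in mesoderm pairs 1, 2 and 3. The NT pairs had 1.04, 0.98 and 1.24, while 1.87, 1.79 and 1.06 were found for FL. FL pairs 1 and 2 were thus the highest of the 9, while FL pair 3 lay within the range of the NT pairs. The spread of TE over all 8022 genes differed between pairs too, with an SD of 1.54 and 1.49 in FL pairs 1 and 2, 0.80 in FL pair 3 and 0.71 in NT pair 2. As a rank among the 8022 genes the 206 were more alike, and their median percentile lay between 92.0 and 96.7 in each of the 9 pairs. FL pairs 1 and 2 both exceeded FL pair 3 in 181 of the 206 genes. The highest of the 9 values fell in FL pair 1 or 2 for 151 genes, and the lowest in an NT pair or FL pair 3 for 176 genes. These counts were not made over the 8022 genes, so they cannot be called particular to the 206.

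**Figure D2:**
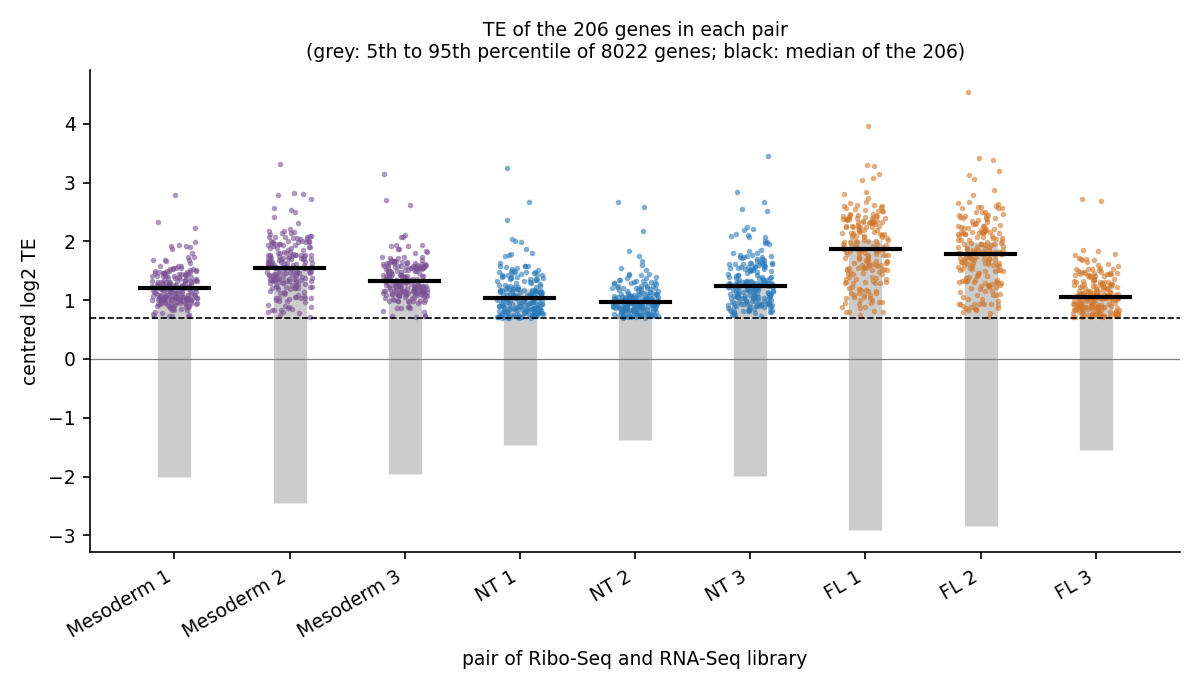
Centred log2 TE (vertical axis) of the 206 genes in each of the 9 pairs of Ribo-Seq and RNA-Seq library (horizontal axis), 1 point a gene, with the median as a black line, the threshold of 0.7 dashed and the 5th to 95th percentile of the 8022 genes in grey. Medians of the 206 genes reach 1.87 and 1.79 in FL pairs 1 and 2, where the grey bars are also longest, and 1.06 in FL pair 3.

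By tissue, the median over genes of the mean of 3 pairs was 1.35 in the mesoderm, 1.11 in NT and 1.59 in FL. FL was the highest of the 3 tissues for 157 genes, the mesoderm for 41 and NT for 8. This was not counted over the 8022 genes, whose TE spread most in FL pairs 1 and 2 (SD 1.54 and 1.49). The replicate spread was large beside the differences between tissues, with a median SD over 3 pairs of 0.25 in the mesoderm, 0.23 in NT and 0.45 in FL. All 3 FL pairs lay above all 3 NT pairs in 29 genes (14.1%), where 9.76% of the 8022 genes showed such a separation. The mesoderm lay wholly above NT in 42 genes (20.4%, background 9.09%), and NT lay wholly above the mesoderm in 0 (background 9.97%). The mesoderm was wholly above FL in 12 genes (5.83%, background 4.01%) and wholly below it in 7 (3.40%, background 5.72%). NT was wholly above FL in 1 gene, *Ncam1* (0.485%, background 6.39%). The mesoderm table was normalized separately from that of NT and FL, so these values are set side by side with no test, and the threshold itself bounds how low any pair can be.

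The threshold was decided mostly by NT. The gene nearest to it on the inner side was *H3f3b*, with 0.701 in NT pair 1, followed by 2 genes without a symbol at 0.702 and 0.703 in NT pair 2. The nearest on the outer side were 3 genes without a symbol, at 0.699, 0.699 and 0.697. Another 330 genes passed in 8 of the 9 pairs. Of these, 209 missed in NT pair 1, 43 in FL pair 3 and 39 in NT pair 2. Without NT replicate 1, 396 genes would have passed in place of 206, of which the rule would keep the 300 highest by mean. At the other end, 23 of the 206 genes were at least 2-fold above the typical gene in all 9 pairs, 11 of them with a symbol: *H2afx*, *Actb*, *Hba-x*, *Ly6e*, *Kdelr2*, *Polr3k*, *Sec61g*, *Rsl24d1*, *Ubqln2*, *Erh* and *Golph3l*.

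The 206 genes were not chosen for abundance, and their mRNA was of middling level. Their median RNA was 1558 normalized reads in the mesoderm, 1400 in NT and 1386 in FL, against 1374, 1336 and 1317 over the 8022 genes, close to the middle of the ranks (percentiles 55.2, 51.9 and 52.3). Their median RPF level was 3924, 3205 and 4306 normalized reads. Levels and TE were nearly unrelated among the 206, with a Pearson's r across genes of 0.02 in the mesoderm, -0.06 in NT and -0.05 in FL. These genes made up 1.86% of the 11054 and took 2.60% to 3.12% of the normalized RNA-Seq reads in each library. In Ribo-Seq they took 5.53% to 6.59% of the reads in NT, 6.54% to 8.26% in the mesoderm, 9.20% and 9.31% in FL replicates 1 and 2, and 6.72% in FL replicate 3.

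**Figure D3:**
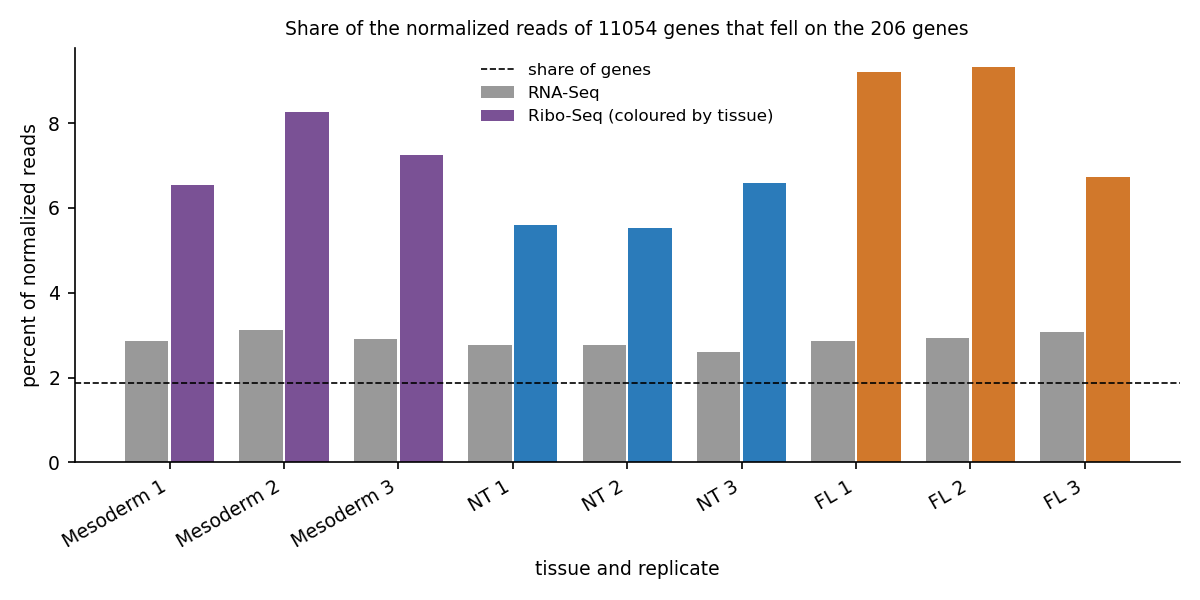
Percent of the normalized reads of 11054 genes (vertical axis) that fell on the 206 genes in the RNA-Seq (grey bars) and Ribo-Seq (coloured bars) library of each tissue and replicate (horizontal axis). The dashed line is their share of genes, 1.86%. Ribo-Seq bars exceed the RNA-Seq bars in each pair, as the choice of the genes requires, and are highest in FL replicates 1 and 2 at 9.20% and 9.31%.

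Among the functional lists, chromatin proteins held the most named genes, 6 of 13 that passed the RNA minimum. *H2afx* (uc009pcy.1, chromosome 9), the histone variant H2AX that is phosphorylated at DNA breaks, had the highest mean TE of all 206 genes, 2.98 or 7.89-fold above the typical gene. Its log2 TE was 2.79, 2.82 and 2.61 in the mesoderm, 1.38, 2.58 and 3.45 in NT and 3.96, 4.54 and 2.68 in FL. Pairs of the mesoderm were close together (2.74 ± 0.11, SD, n = 3), whereas NT (2.47 ± 1.04) and FL (3.73 ± 0.95) spread widely and overlapped. RNA-Seq was made from poly(A) mRNA, and part of *H2afx* mRNA is known to lack a poly(A) tail, a part that was not counted here and whose share was not tested.

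*H3f3a* (uc007dwr.1) and *H3f3b* (uc007mjo.1) encode the same replacement histone, H3.3, from separate genes, and they differed in TE. *H3f3a* was at 2.23, 3.31 and 3.15 in the mesoderm, 0.94, 2.67 and 2.09 in NT and 3.29, 3.42 and 2.71 in FL. *H3f3b* was at 0.88, 1.55 and 0.95 in the mesoderm, 0.70, 0.79 and 0.89 in NT and 2.16, 2.16 and 1.26 in FL. *H3f3a* was thus the higher of the pair in all 9 pairs of libraries. The authors kept uniquely mapped reads, and the values of genes with near-identical copies or processed pseudogenes, such as these, *Actb*, *Hmgb1*, *Hmgn1* and *Tpi1*, are uncertain for that reason. The other members of the list were *Cbx3* (mean TE 1.63), a heterochromatin protein, and *Hmgn1* (1.57) and *Hmgb1* (1.44), which bind nucleosomes and bend DNA.

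The cytoskeleton was represented by *Actb*, *Pfn1* and *Stmn1*, 3 of 11 listed genes that passed the RNA minimum. *Actb* (uc009ajk.1), cytoplasmic beta-actin, was at 2.32, 2.80 and 2.70 in the mesoderm, 1.23, 2.17 and 2.51 in NT and 3.14, 3.13 and 1.65 in FL. Its RNA was the highest of any named gene of the 206, with 12851 to 29528 normalized reads in the 9 RNA-Seq libraries and 50976 to 203240 in Ribo-Seq. *Pfn1* (uc007jvv.2), which binds actin monomers, was at 1.53, 2.01 and 1.58 in the mesoderm, 0.81, 1.01 and 1.63 in NT and 3.08, 3.20 and 1.53 in FL. In FL replicate 3 its TE was below that of NT replicate 3, unlike in the other FL pairs. *Stmn1*, which destabilizes microtubules, had a mean TE of 1.62.

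A blood gene followed *Actb* in mean TE. *Hba-x* (uc007ijj.2), the embryonic alpha-like globin, was at 1.99, 2.78 and 1.92 in the mesoderm, 1.39, 1.59 and 2.55 in NT and 3.30, 3.39 and 1.84 in FL. Its lowest value was 1.39, although its RNA ran from 2250 to 12367 normalized reads between the mesoderm replicates. Over the blood and macrophage markers measured, the summed RNA ran from 3253 to 13792 normalized reads in the mesoderm (6 of 7 genes), 11918 to 20604 in NT and 14183 to 24633 in FL (7 of 7 genes). *Hba-x* supplied most of each sum, and the share of blood cells in each tissue was not tested.

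The secretory pathway gave *Kdelr2* and *Sec61g* of 11 listed genes. *Kdelr2* (uc009akh.2), a receptor that returns proteins to the endoplasmic reticulum, was at 1.63, 1.89 and 1.94 in the mesoderm, 1.14, 1.51 and 2.08 in NT and 2.25, 2.27 and 1.77 in FL. *Sec61g*, a small subunit of the channel through which nascent proteins enter that compartment, ranged from 1.12 to 2.80. *Ly6e* (uc011zuh.1), a GPI-anchored surface protein that passes through it, was at 1.66, 2.12 and 1.81 in the mesoderm, 1.00, 1.21 and 2.84 in NT and 2.40, 2.68 and 1.86 in FL. Secreted matrix proteins, *Sparc* (mean TE 1.55) and *Bgn* (1.49), made up 2 of 5 listed genes.

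RNA polymerases gave 2 of 12 listed genes, both small subunits. *Polr3k* (uc008onw.1), of RNA polymerase III, was at 1.18, 2.49 and 1.64 in the mesoderm, 1.36, 1.24 and 2.11 in NT and 2.25, 2.35 and 1.48 in FL. *Polr2l*, which all nuclear RNA polymerases share, ranged from 0.80 to 3.07. Of 29 listed splicing and mRNA-binding proteins, 5 were among the 206. *Erh* had a mean TE of 1.65, *Nop10*, of the box H/ACA small nucleolar ribonucleoproteins, 1.59, and *Cnbp*, a nucleic acid binding zinc finger protein, 1.56. *Ncbp2*, the subunit that binds the mRNA cap in the nucleus, had 1.46, and *Rbm3*, a cold-inducible RNA-binding protein, had 1.28.

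All 3 of the 14-3-3 genes with a symbol that passed the RNA minimum were among the 206, namely *Ywhae*, *Ywhaq* and *Ywhab*, adaptors that bind phosphorylated proteins. Their mean TE ran from 1.57 in *Ywhae* to 1.44 in *Ywhab*, and the lowest value of the 27 was 0.88. Protein turnover gave 3 of 25 listed genes. *Ubqln2*, which carries ubiquitinated proteins to the proteasome, had a mean of 1.68, *Ube2l3*, a ubiquitin-conjugating enzyme, 1.49, and *Psme1*, a proteasome activator subunit, 1.28. *Ptges3* (uc007hld.1), the HSP90 co-chaperone p23, was the only one of 10 listed chaperones. Its TE was 1.91, 0.80 and 2.08 in the mesoderm, 1.58, 1.11 and 2.21 in NT and 2.83, 2.38 and 0.78 in FL.

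Of 17 listed mitochondrial proteins outside the families left out, 3 were among the 206: *Fam136a* with a mean TE of 1.70, *Cycs*, cytochrome c, with 1.66, and *Sdhc*, a membrane anchor of succinate dehydrogenase, with 1.64. *Tpi1* (1.62) was the only one of 3 glycolytic genes. *Mgst3* (1.65) and *Txn1* (1.33), which act on lipid peroxides and protein disulfides, were 2 of 12 redox genes. Over all symbols, 53 of 2340 genes past the RNA minimum were among the 206. The symbols come in part from a supplementary table of genes selected on these libraries, so the counts describe the named genes and are no test of any list.

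*Sh3bgrl* (uc009uct.1), a small thioredoxin-like protein, had a TE of 1.92, 2.72 and 1.81 in the mesoderm, 3.25, 1.32 and 1.09 in NT and 2.13, 1.77 and 0.78 in FL. NT pair 1, at 3.25, was the highest of all 206 genes in that pair. Its RNA there was 204 normalized reads against 762 and 582 in NT replicates 2 and 3, while its RPFs were 1931, 1940 and 1300. *Dcx* had the same shape in NT, with RNA of 2675, 7953 and 6797 beside RPFs of 16928, 17087 and 14041.

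**Figure D4:**
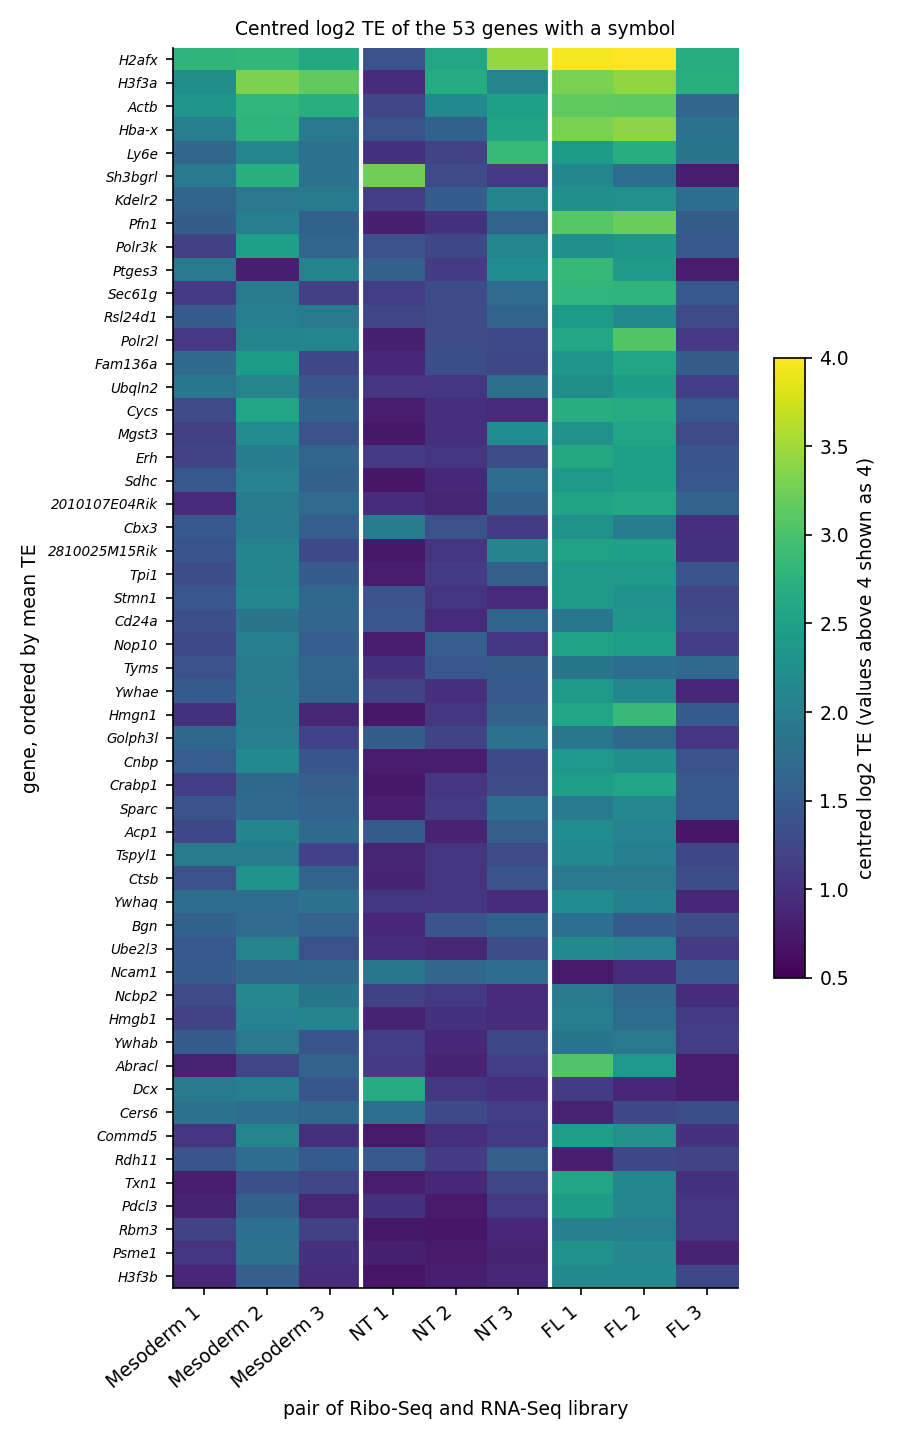
Centred log2 TE of the 53 named genes (rows, ordered by mean TE) in the 9 pairs of Ribo-Seq and RNA-Seq library (columns), with colour from dark at 0.5 to bright at 4 or above on the log2 scale. FL pairs 1 and 2 are brighter than FL pair 3 for 50 genes, with *H2afx* at 3.96 and 4.54, while *Ncam1* is dark there at 0.74 and 0.92.

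The mRNA of the 206 genes differed between FL and NT about as often as that of other genes. Limma with Benjamini-Hochberg adjustment over all 11231 genes of the NT and FL table called 31 of the 206 (15.0%) (adjusted p below 0.05, change of 2-fold or more), where 17.3% of all genes were called. In FL 14 genes were higher (6.80%, background 7.82%) and in NT 17 (8.25%, background 9.49%). The median difference of the 206, FL minus NT, was -0.01 on the log2 scale, against 0.03 over the 8022 genes. Without replicate 2 of both tissues the calls were 9 and 11, beside 448 and 725 over all genes. Of the 31 genes, 7 had a symbol. Among the 15 functional lists, the cytoskeleton, the secretory pathway and the neuronal markers each held 1 of them.

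The mRNAs higher in NT included genes of neurons. *Dcx* (uc033juo.1), doublecortin, a microtubule protein of migrating neurons, had 345, 301 and 343 normalized reads of RNA in FL against the NT values above, and the tissues did not overlap. The difference was -3.99 ± 0.33 (SE) on the log2 scale, 15.9-fold (limma, adjusted p = 8.24e-07). *Ncam1* (uc009pje.2) had 10154, 11446 and 13636 reads in NT and 2609, 2377 and 1939 in FL, a difference of -2.35 ± 0.20 (limma, adjusted p = 1.35e-06). *Crabp1* (uc009prp.2), which binds retinoic acid in the cytoplasm, had 5373, 4227 and 5913 in NT and 1065, 1087 and 941 in FL, 4.97-fold higher in NT (limma, adjusted p = 0.000114). None of these genes overlapped between the tissues. *Cers6*, a ceramide synthase, and *Stmn1* differed by -1.57 ± 0.24 and -1.36 ± 0.32 in the same direction (limma, adjusted p = 0.000209 and 0.00644). The call of *Stmn1* was lost without replicate 2 of both tissues, at an adjusted p of 0.111 in limma.

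*Kdelr2* and *Tyms*, thymidylate synthase, were the named genes with higher mRNA in FL. *Kdelr2* had 2497, 2712 and 2647 reads in FL and 1473, 1175 and 1064 in NT, a difference of 1.09 ± 0.22 (limma, adjusted p = 0.00194). *Tyms* had 665, 715 and 650 in FL and 444, 265 and 292 in NT, a difference of 1.06 ± 0.22 (limma, adjusted p = 0.00264). The groups did not overlap in either gene, but both lie near 2-fold and each lost its call in 3 of the fits with libraries left out. Without replicate 2 of both tissues *Kdelr2* was at 1.04 and *Tyms* at 0.87 (limma, adjusted p = 0.101 and 0.161), and without NT replicate 3 alone they were at 0.99 and 0.98. *Kdelr2* also fell below 2-fold without replicate 3 of both tissues (0.98), and *Tyms* without NT replicate 2 (0.91). The largest difference in this direction belonged to a gene without a symbol, uc012fxo.1, which also had the second highest mean RNA of the 206. It had 33082, 34548 and 34004 reads in FL, 2811, 2222 and 2495 in NT and 17999 to 44430 in the mesoderm (limma, 13.6-fold, adjusted p = 7.72e-07).

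RPFs differed in 50 of the 206 genes (24.3%), where limma called 32.7% of all 11231 genes at the same thresholds. In FL 37 genes were higher (17.96%, background 14.9%), and in NT 13 (6.31%, background 17.8%). The median difference of the 206 was 0.52 on the log2 scale, against 0.01 over the 8022 genes. RPFs enter the TE by which the genes were chosen, so the counts are not independent of the choice. These counts too depend on the libraries. Without replicate 3 of both tissues the median was 0.84 and 78 genes were higher in FL, beside 2711 of all 11231 genes. Without replicate 1 it was 0.31 and 18 genes, beside 833 of all genes. Without replicate 2 it was 0.31 and 14 genes, beside 649 of all genes. Without FL replicate 3 alone, 68 of the 206 were higher in FL, beside 2383 of all genes.

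The named genes with more RPFs in FL were led by *H2afx* and *Pfn1*. *H2afx* had 31162, 44229 and 16474 normalized reads in FL and 5202, 5783 and 14157 in NT, a difference of 1.91 ± 0.42 (limma, adjusted p = 0.00281). The groups did not overlap, though FL replicate 3 and NT replicate 3 lay next to each other, and the call was lost without replicate 1 (adjusted p = 0.0799) or 2 (0.103). *Pfn1* had 55703, 58938 and 20566 in FL and 10318, 10228 and 16727 in NT, a difference of 1.75 ± 0.34 (limma, adjusted p = 0.00127), which was lost in the same cases (0.0760 and 0.0847). *Kdelr2* (1.60 ± 0.22) and *Tyms* (1.49 ± 0.22) followed their mRNA and kept their calls under all alternatives run (limma, adjusted p = 6.66e-05 and 0.000125). *Hmgn1* was at 1.44 ± 0.40 (limma, adjusted p = 0.0109), its tissues overlapped, and the call was lost without replicate 1 or 2 of both tissues (1.06 and 0.99), of NT (1.32 and 1.30) or of FL (1.18 and 1.13). Of the 53 named genes 16 had more RPFs in FL, against 17.96% of the 206 genes and 14.9% of all 11231 genes. One of the supplementary tables that gave symbols is described as genes whose TE differed between NT and FL in these libraries. Having a symbol is therefore not independent of this difference, and the count of 16 is a description only. The 16 include 5 of the 6 chromatin genes, all but *Cbx3* (0.33, not called), of which *H2afx* and *Hmgn1* lost their calls as given above. Of the 3 14-3-3 genes 0 were called. The lists were not compared with each other by a test.

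In NT the named genes with more RPFs were *Dcx*, *Ncam1*, *Cers6* and *Crabp1*. *Dcx* had 16928, 17087 and 14041 reads in NT and 757, 571 and 605 in FL, a difference of -4.64 ± 0.33, 24.9-fold (limma, adjusted p = 1.51e-07). *Ncam1* had 36933, 36988 and 48074 in NT and 4377, 4602 and 5348 in FL, a difference of -3.08 ± 0.20 (limma, adjusted p = 8.41e-08). Both kept their calls under all alternatives run, as did *Cers6* at -1.84 ± 0.24 (limma, adjusted p = 4.00e-05). *Crabp1* differed less in RPFs than in mRNA, at -1.19 ± 0.32 (limma, adjusted p = 0.00979), with 8835, 8967 and 15483 reads in NT and 5869, 6584 and 2647 in FL. Without replicate 1 of both tissues its call was lost on the adjusted p alone (-1.50, limma, adjusted p = 0.0553). The difference fell below 2-fold without replicate 3 of both tissues (-0.52), NT replicate 3 (-0.93) or FL replicate 3 (-0.78). Over the 206 genes, 14 were higher in FL in both mRNA and RPFs, 12 were higher in NT in both, and 0 were called in opposite directions. Another 23 genes had more RPFs in FL with no call in mRNA. These joint counts were not made over all 11231 genes, so nothing is read from them. Calls higher in FL were more frequent in RPFs (14.9%) than in mRNA (7.82%) over all genes too.

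**Figure D5:**
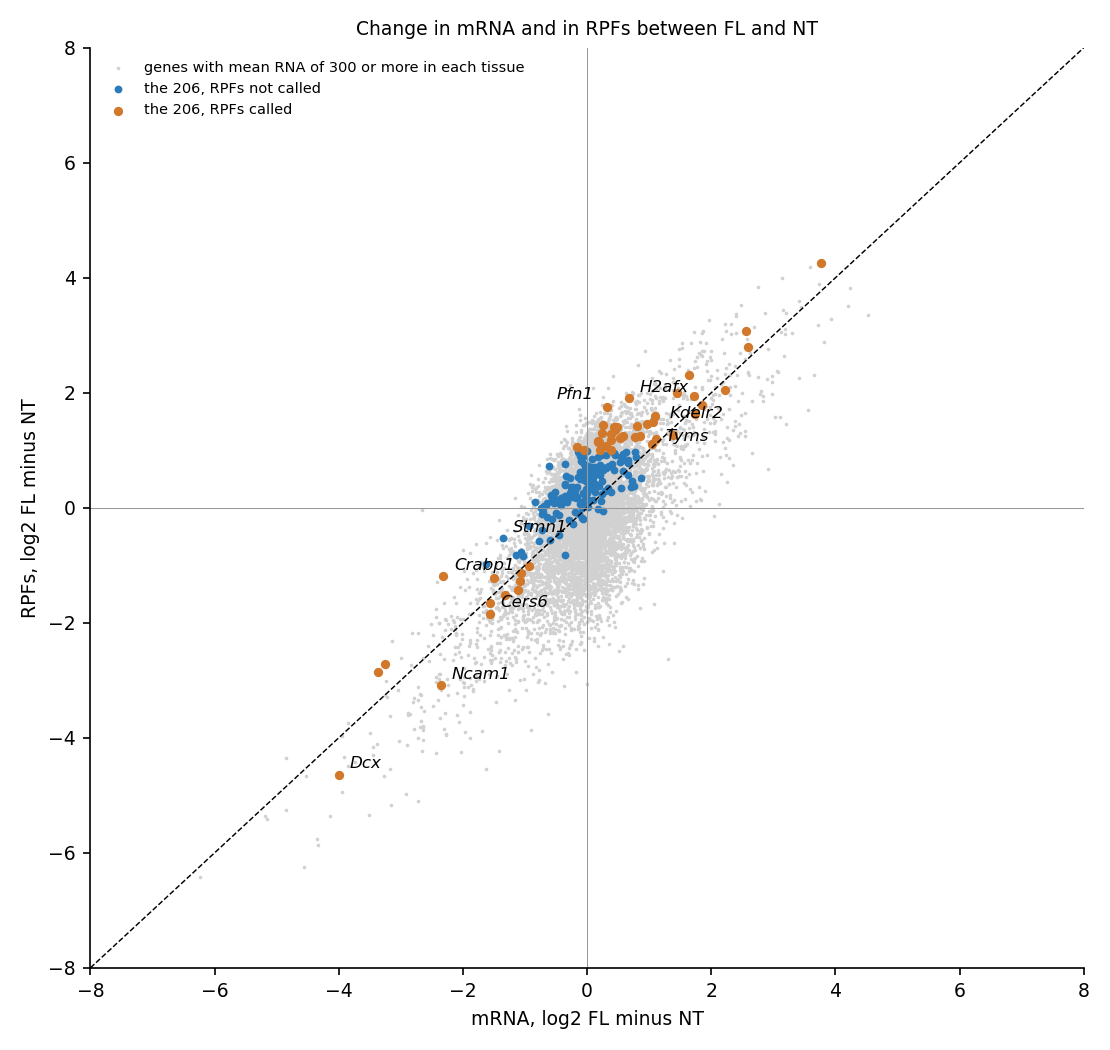
Difference in mRNA (horizontal axis) and in RPFs (vertical axis) between FL and NT, both log2 FL minus NT from limma, for the 8022 genes in grey and the 206 in blue (RPFs not called) or orange (RPFs called), with the line of equal difference dashed. Of the 206 genes 178 lie above the line (not counted for the 8022), *Pfn1* (0.31 and 1.75) among them, and *Dcx* is at the lower left (-3.99 and -4.64).

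Mean TE was higher in FL than in NT for 178 of the 206 genes, a count that was not made over the 8022 genes. The rule used the TE of these same pairs and bounds it from below in both tissues. What follows is therefore a description of the chosen genes, and nothing is read from the calls. The fit over all genes in limma, which asks whether the difference between tissues is the same in Ribo-Seq as in RNA-Seq (adjusted p below 0.2, change of 2-fold or more), called 0 of the 206. It called 0.401% of all 11231 genes, 0.125% higher in FL and 0.276% higher in NT. Of the 206, 18 had an unadjusted p under 0.05. On recovered whole reads edgeR's quasi-likelihood test called 0 of the 206, with 34 at an unadjusted p under 0.05. Over all 11231 genes it called 18 higher in FL and 21 higher in NT. Unadjusted p-values under 0.05 were not counted over all genes, so nothing is read from their counts among the 206. DESeq2 called 9 of the 206, all higher in FL, where it called 570 of 11193 genes higher in FL. The median difference of the 206 was 0.49 on the log2 scale, against -0.03 over the 8022 genes. These counts depend on the libraries of replicate 3. Without replicate 3 of both tissues 77 of the 206 were called higher in FL and their median was 0.85, beside 2329 of all 11231 genes called. Without FL replicate 3 alone it was 59 genes and 0.75, beside 1805 of all genes. Without NT replicate 3 alone it was 17 genes and 0.59, beside 1000 of all genes. Without replicate 1 or 2 of both tissues 0 of the 206 and 0 of all genes were called, and the medians of the 206 were 0.26 and 0.30. None of the 206 was called higher in NT in any of these fits, and the rule bounds their TE in NT and FL from below. Over all genes DESeq2 called 286 higher in NT. Limma called 2504 without replicate 3 of both tissues, 2167 without FL replicate 3 and 1235 without NT replicate 3.

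Among the named genes, *Pfn1* had a TE difference, FL minus NT, of 1.44 ± 0.48 (SE) on the log2 scale, *Cycs* of 1.35 ± 0.43 and *H2afx* of 1.24 ± 0.59. None of these was called. Mean TE was higher in NT for 5 named genes. *Ncam1* stood at -0.74 ± 0.29, with a TE of 1.87, 1.66 and 1.75 in NT and 0.74, 0.92 and 1.44 in FL, and it was the only one of the 206 with all NT pairs above all FL pairs. The others were *Dcx* (-0.65 ± 0.46), *Sh3bgrl* (-0.34 ± 0.58), *Rdh11* (-0.31 ± 0.30), a retinol dehydrogenase, and *Cers6* (-0.27 ± 0.33), whose pairs overlapped between the tissues. Of these 5 genes *Ncam1*, *Dcx* and *Cers6* had more mRNA in NT, and *Sh3bgrl* and *Rdh11* did not.

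The member of highest mean RNA, uc009iut.1, has no symbol in the tables used. It had 45308, 41735 and 37389 normalized reads of RNA in NT, 46363, 54407 and 62060 in FL and 4409, 14086 and 6912 in the mesoderm. Its TE was 1.32, 2.53 and 1.58 in the mesoderm, 1.18, 1.28 and 1.70 in NT and 2.60, 2.44 and 1.58 in FL. Its RNA in each mesoderm library was below that in every NT and FL library, but the mesoderm was normalized separately and this difference was not tested. Between FL and NT its RPFs were higher in FL by 1.18 ± 0.23 (limma, adjusted p = 0.00124), and its mRNA was not called.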

How the data were processed

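RNA-Seq and Ribo-Seq libraries of E11.5 mesoderm, NT and FL were grouped by the labels, with 3 replicates in each of 6 groups. The authors trimmed adapters, removed rRNA, tRNA and snRNA reads and aligned the rest to canonical UCSC known gene isoforms (mm10). Uniquely mapped reads inside the CDS were kept, apart from the 15 codons at its start and the 5 at its end, and were scaled with the library sizes that DESeq estimates. The deposited values are this signal, normalized reads per gene, for 12064 genes in the mesoderm table and 11231 in that of NT and FL. The tables were normalized separately, so tests were run on NT and FL only. In each library all values below 10000 were whole multiples of 1 step, to within 0.01 normalized reads, which gave whole reads. RNA-Seq used poly(A) mRNA, and multi-copy genes can lose reads to unique mapping.

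TE was centred on the median of the 11054 shared genes in each pair. FL was compared with NT with limma 3.58.1 in R 4.3.3, using log2(normalized reads + 1), a variance trend and no block, over 11231 genes with Benjamini-Hochberg adjustment. On this scale, folds of low genes are understated. edgeR 4.0.16 and DESeq2 1.42.0 were run on the whole reads as alternatives. Other alternatives were the pseudocount, a filter on low values, median centring, blocks, since NT and FL share embryos and the libraries of a sample share cells, and each replicate left out. The fits with limma, edgeR and DESeq2 were tested on simulated counts with the same dispersion in every gene and library. No simulated replicate stood apart, unlike Ribo-Seq replicate 3 here, so the simulation does not cover that feature of the data. Tables and plots were made in Python 3.11.15.

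Values were printed for the 10 named genes of highest mean TE, the 3 of highest RNA (none has a symbol, and 2 are given by identifier), up to 5 named genes called in each direction of a comparison, the genes nearest to the threshold and up to 4 genes of each list. *Hmgb1*, *Rbm3*, *Rdh11*, *2010107E04Rik* and the TE differences were added after their values were seen. Reading frames and start sites come from GENCODE vM21, whose isoforms can differ from those counted, and *2810025M15Rik* had no match there. The members, the lists and the tests were chosen with earlier results of these data known.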

Additional observations from a re-analysis of the deposited data

How the results depend on the processing

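The number of genes that passed was 521 at a centred log2 TE of 0.5 or higher and 23 at 1 or higher, and 119 with a mean RNA of at least 1000. It ran from 245 to 425 with a replicate left out, most without replicate 1 (425) and without NT replicate 1 alone (396, chosen after seeing the data). The 206 genes had to pass in each of these cases, since leaving out a pair only removes a condition. The rule keeps at most 300 of the genes that pass. The other settings gave 203 to 269 genes. The median TE of the 206 genes ran from 1.27 to 1.44 in the mesoderm, from 1.02 to 1.18 in NT and from 1.43 to 1.83 in FL with a replicate left out, and moved by less than the spread between pairs with another pseudocount.

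For FL against NT, DESeq2 on whole reads called 9 genes with higher TE in FL against 0 in limma, beside 570 and 14 over all genes. With a replicate left out the calls ran from 0 to 77 for TE higher in FL, where they ran from 0 to 2329 over all genes. They ran from 9 to 15 and from 11 to 17 for mRNA higher in FL and in NT, and from 14 to 78 and from 9 to 14 for RPFs. Over all genes the mRNA calls ran from 448 to 905 and from 725 to 1088. The RPF calls over all genes ran from 649 to 2711 and from 1037 to 2925. Centring each library on its median moved the median RPF difference of all genes from 0.04 to 0.16. It gave 51 and 12 RPF calls, beside 2041 and 1763 over all genes. None of the mRNA and RPF differences recomputed for named genes under these alternatives changed direction. TE differences of single genes were not recomputed. Both dissected tissues were collected from shared embryos, per the study's methods, but samples of equal replicate number did not deviate together (r of -0.29, -0.50 and -0.58 in Ribo-Seq, and -0.02, -0.22 and -0.24 in RNA-Seq), and the labels do not say that a number marks the same embryos. With that pairing taken as given, the replicate block gave 0 TE calls, 14 and 17 mRNA calls and 36 and 13 RPF calls among the 206. Over all genes it gave 821 and 1032 mRNA calls and 1604 and 1866 RPF calls. The tissue-by-replicate block gave 0 TE calls. No count of mRNA or RPF calls moved by over 1.5 times, while a TE count of 0 could not fall. Over all genes the TE calls higher in FL and in NT fell from 14 and 31 to 1 and 5 with the replicate block. With the tissue-by-replicate block they fell to 1 and 3. The depth of the Ribo-Seq libraries limits TE of weakly expressed genes, which the RNA minimum keeps out.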

Other observations

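The 12 genes left out by symbol had a mean centred log2 TE of 1.39 to 2.24 over the 9 pairs. *Rpl14* (2.24) and *Rpl36al* (1.49) encode proteins of the cytoplasmic ribosome, and *Mrpl34* (2.12), *Mrpl40* (1.65), *Mrpl50* (1.61) and *Mrps18c* (1.56) encode proteins of the mitochondrial ribosome. The other 6 encode subunits of the respiratory chain and of ATP synthase, with *Uqcr11* highest (2.15), followed by *Atp5h* (1.57), *Ndufb7* (1.56), *Cox5a* (1.53), *Ndufa4* (1.40) and *Ndufa8* (1.39). *Rpl14*, *Uqcr11* and *Mrpl34* lie between *Hba-x* (2.31) and *Ly6e* (1.95) of the named genes.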
